A study of Mus musculus with 768 samples.

Results

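Chemokines are small secreted or membrane-bound proteins that attract cells, and their receptors are mostly G-protein-coupled. The genes described here are those named as a Ccl, Cxcl, Xcl or Cx3cl ligand, as a matching receptor, or as an atypical chemokine receptor (Ackr), 56 of the 23997 gene names in the count tables. They comprise 34 ligands and 22 receptors. Of these 56, 51 had at least 1 read in a kept cell of either plate, and Ccl1, Ccl19, Ccl26, Ccr3 and Cxcl3 had none. Across all kept cells 33 of the 56 stood at 5 reads per 1e6 reads of the same cells (CPM) or more in at least 1 plate.

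Single cells were sorted from inguinal mammary glands of C57BL/6 mice into 384-well plates and sequenced by Smart-Seq2, a full-length protocol with 1 library per cell. Every mouse carried WAP-CRE, a Cre recombinase driven by regulatory sequence of Wap, a milk protein gene of alveolar luminal cells. The control plate held R26-tdTomato cells, in which Cre turns on a red reporter, and the other plate held R26-N1ICD-EGFP cells, in which it turns on the active intracellular part of Notch1 and a green reporter. Both alleles sit at the Rosa26 locus, the sample descriptions call both groups "homo", and glands were taken after a lactation given as 3 to 4 months. Cells of either colour were passed by the sort as the protocol gives it. No animal, age or pool is named, so each plate was taken as 1 sample. Nothing here has a replicate check, and the genotype cannot be told apart from the plate or the reporter. For that reason "higher" and "lower" refer to size only, and intervals are exact 95% intervals for counting error.

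Of the 384 wells per plate, 86.98% on the control plate and 73.7% on the other passed a minimum of 50000 reads and 1000 genes, and these cells were kept. Their median depths were 241888 and 348469 reads, and their median numbers of genes were 3598 and 2482. The eGFP row had 3095 reads in 93 N1ICD-EGFP cells and 64 reads in 55 control cells, with at most 2 reads in a control cell. Clustering each plate without the 56 genes put 61.1% of kept control and 65.7% of kept N1ICD-EGFP cells in clusters with raised luminal progenitor and secretory markers, called luminal progenitor/secretory-like. It gave 65 and 7 hormone-sensing luminal-like cells, 24 and 48 leukocyte-like cells, 7 basal-like cells in the control plate only, and 34 and 42 cells in clusters left unnamed. Among the leukocyte-like cells, 11 and 17 read macrophage markers most, 8 and 8 T cell markers, 3 and 21 B cell markers, and 2 and 2 none clearly. The luminal progenitor/secretory-like class comprised clusters 0 and 1 in the control plate and 0, 1 and 3 in the N1ICD-EGFP plate.

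In the mammary gland, chemokines from the epithelium are known to draw macrophages, lymphocytes and antibody-secreting cells into the tissue around development, lactation and involution. Ligands fall into CC, CXC, C and CX3C families by the spacing of their first cysteines. Many inflammatory ligands are switched on by NF-kappaB or interferon signalling, whereas homeostatic ligands are made without such stimuli. Atypical receptors bind ligands without classical G-protein signalling and can clear them from the tissue.

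The genes differed in the cell classes that read them. Cx3cl1, Cxcl16, Cxcl17 and the receptor Ackr3 were read in many luminal progenitor/secretory-like cells of both plates. Cxcl15 was read in every hormone-sensing luminal-like cell of both plates. Cxcl14 and Cxcl12 were read in all 7 basal-like cells. Of the classes, leukocyte-like cells had the highest pooled level of most receptors and of fewer ligands. This was so for 14 of 21 receptors and 12 of 30 ligands with a read in the control plate, and for 12 of 16 receptors and 11 of 26 ligands with a read in the N1ICD-EGFP plate.

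**Figure D1:**
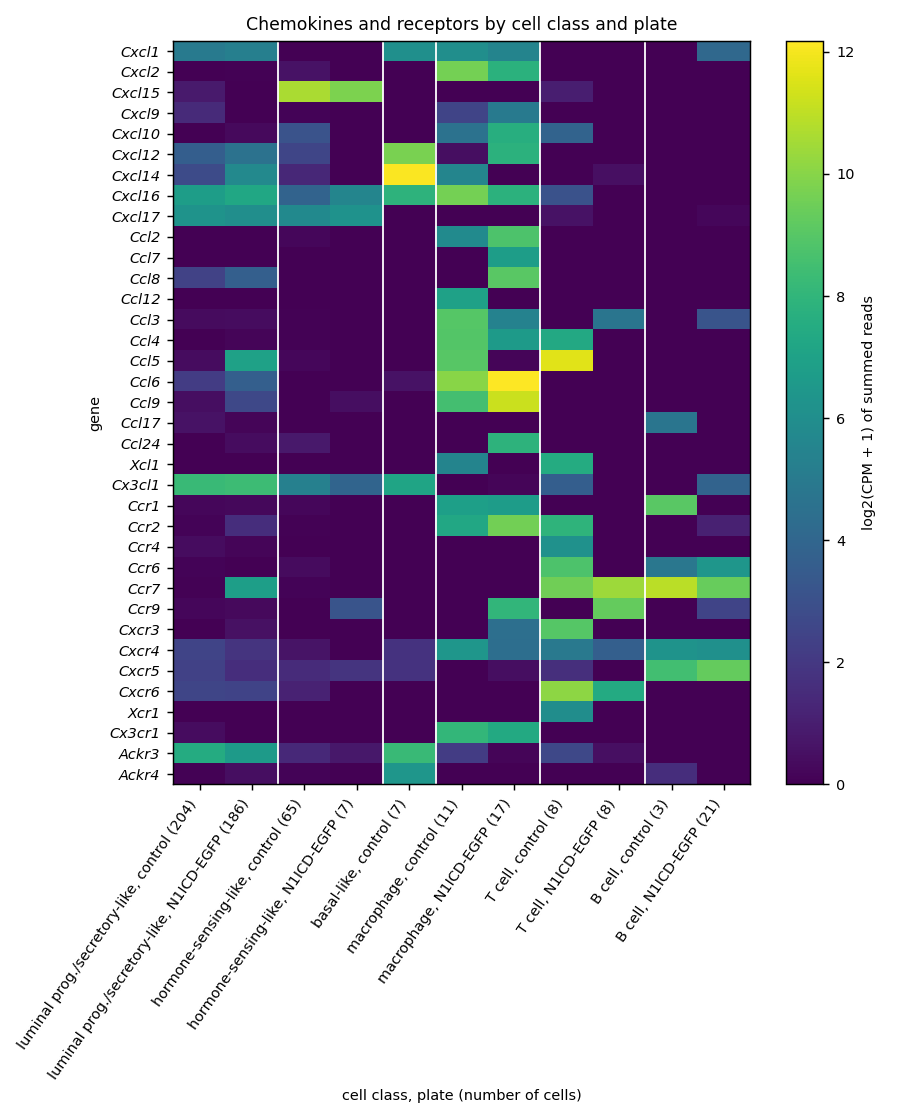
Pooled level of 36 genes, shown as log2(CPM + 1), in each cell class and plate, with the number of cells in brackets. The genes drawn reached 20 CPM in at least 1 of the 11 columns. Cxcl15 is bright in hormone-sensing luminal-like cells, Cx3cl1 in luminal progenitor/secretory-like cells, Cxcl14 in basal-like cells and Ccl6 in macrophage cells. Ackr3 is bright in luminal progenitor/secretory-like cells and brightest in basal-like cells.

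Among the ligands of the luminal progenitor/secretory-like class, Cx3cl1 was read in the most cells. Cx3cl1 (chromosome 8, 94772009 to 94782427, GRCm38; protein-coding) encodes fractalkine, a membrane-tethered chemokine that can be shed and whose receptor is Cx3cr1. Its pooled level in this class was 305.2 CPM (300.3 to 310.1) in the control plate and 324.6 CPM (320.3 to 329.1) in the N1ICD-EGFP plate, a log2 ratio of 0.09 on the scale of CPM plus 1. A read was found in 81.4% of the control cells (75.3 to 86.5) and in 66.1% of the N1ICD-EGFP cells (58.8 to 72.9). With every cell thinned to 50000 reads these shares were 74.5% and 58.6%. The same direction was common among genes, since 4941 genes read in at least 20% of cells after thinning, averaged over the plates, had median shares of 38.7% and 29.03% and a median difference of -9.68 percentage points. Leukocyte-like cells, taken as a class that should lack Cx3cl1, held a read in 4.17% and 12.5% of cells in the 2 plates (4.17% and 6.25% after thinning), at median depths of 207726 and 339930 reads against 237220 and 352560 in the luminal class. Among the cells with a Cx3cl1 read, the lowest, median and highest level per cell were 3.12, 260.98 and 2643 CPM in the control plate and 2.02, 327.8 and 2771 CPM in the N1ICD-EGFP plate. The ranges overlapped almost entirely. The pooled log2 ratio ran from -0.34 to 0.47 over 17 settings of the processing and never reached 2-fold.

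The levels of Cx3cl1 also varied among clusters within the luminal class. Clusters 0 and 1 of the control plate had 332.6 and 264.5 CPM, against 317.3, 483 and 221.3 CPM in clusters 0, 1 and 3 of the N1ICD-EGFP plate. Cluster 1 of the N1ICD-EGFP plate, whose leading genes were Lect1, Alox15 and Alox12e, thus had the highest level, with a read in 30 of its 46 cells. The unnamed clusters, which held raised progenitor markers too, had 295.3 and 338.5 CPM. The 250 bases before the RefSeq start of Cx3cl1 (GRCm38.p6, chr8:94771930-94772179, plus strand) are shown because Notch signals through RBPJ. The GENCODE gene span given above begins at 94772009, inside this window. Capitals mark the single match to the core RBPJ motif TGGGAA, on the opposite strand from position -159 to -154 relative to the RefSeq start. This match lies within the GENCODE span and not upstream of it.
Cx3cl1: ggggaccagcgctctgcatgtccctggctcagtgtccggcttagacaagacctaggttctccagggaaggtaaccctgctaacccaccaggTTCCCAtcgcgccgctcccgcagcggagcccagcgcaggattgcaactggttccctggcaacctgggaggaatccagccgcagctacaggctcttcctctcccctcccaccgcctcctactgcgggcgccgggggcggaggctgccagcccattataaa
Both strands were searched, and 24.1% of the 27025 genes with such a promoter sequence held the motif, as did 12 of the 41 matched chemokine and receptor genes. A match describes these letters only.

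Cxcl16 and Cxcl17 were each read in 70 luminal progenitor/secretory-like cells of the control plate, and in 63 and 42 of the N1ICD-EGFP plate. Cxcl16 encodes a transmembrane chemokine that binds Cxcr6 and acts as a scavenger receptor on macrophages. Its pooled level in the class was 108.9 CPM (106.02 to 111.9) in the control plate and 151.7 CPM (148.7 to 154.7) in the N1ICD-EGFP plate, a log2 ratio of 0.47. A read was found in 70 control cells (34.3%) and 63 N1ICD-EGFP cells (33.9%), or 29.9% and 28.5% after thinning. Cluster 3 of the N1ICD-EGFP plate was lowest, with 40.5 CPM against 196.97 and 227.1 CPM in clusters 0 and 1. In leukocyte-like cells the level was 398 CPM in the control and 104.4 CPM in the N1ICD-EGFP plate, so there the difference had the other sign. In the control basal-like cells it was 237.4 CPM, also above the luminal class. Cxcl16 overlaps Zmynd15 on the opposite strand, and since the use of strand in counting is not given in the sources used here, reads of both genes cannot be told apart.

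Cxcl17 encodes a mucosal chemokine known to attract myeloid cells. Its level in the luminal progenitor/secretory-like class was 75.3 CPM (72.9 to 77.8) in the control plate and 63.03 CPM (61.1 to 65) in the N1ICD-EGFP plate, a log2 ratio of -0.25. It was read in 70 and 42 cells, or 34.3% and 22.6%. In hormone-sensing luminal-like cells it stood at 53.2 CPM (18 of 65 cells) and 73.9 CPM (3 of 7 cells). The level in leukocyte-like cells was near 0 in both plates, with a read in 1 cell of each. Cxcl17 overlaps 4732471J01Rik on the opposite strand.

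Ackr3, an atypical receptor that scavenges Cxcl12, was the only receptor gene above 20 CPM in luminal progenitor/secretory-like cells of the control plate. It lies on chromosome 1 (90203980 to 90216751). Its level in the class was 177.6 CPM (173.9 to 181.4) in the control plate and 100.1 CPM (97.7 to 102.6) in the N1ICD-EGFP plate, a log2 ratio of -0.82. A read was found in 50.5% of control cells (43.4 to 57.5) and in 27.4% of N1ICD-EGFP cells (21.1 to 34.4), or 48.04% and 22.04% after thinning. In leukocyte-like cells the thinned shares were 8.33% and 2.08%. The difference in thinned shares of the luminal class lay beyond the lower quartile of the 4941 genes above, which was -14.5 points. Per-cell levels among cells with a read overlapped, with medians of 205.4 and 172.7 CPM. All 3 N1ICD-EGFP clusters, at 104.3, 109.7 and 87.96 CPM, were below both control clusters, at 197.5 and 148.2 CPM. The log2 ratio kept its sign in all 17 settings, from -1.26 to -0.01, and was past 2-fold in 5. Over all kept cells Ackr3 had 120.7 and 112.5 CPM, with 85.1% of the reads of the unnamed N1ICD-EGFP cluster in 1 cell. Without the leading cell of each plate these levels were 112.6 and 73.7 CPM.

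The 4 genes of this luminal group were not read in the same cells as a block. After thinning, 10 control and 2 N1ICD-EGFP cells of the class read all 4, and 17 and 39 cells read none. Cxcl16 was read in 30.3% of the control cells with a Cx3cl1 read and in 28.8% of those without. Ackr3 was read in 48.03% of the control cells with a Cx3cl1 read and in 48.1% of those without. In the N1ICD-EGFP plate Cxcl17 was read in 32.1% of cells with a Cxcl16 read and in 15.8% of those without, a difference that was not tested. Per kilobase of exon, Cxcl17 stood at 98.9 and Cx3cl1 at 77.7 CPM per kb in the control class, followed by Ackr3 at 53.1 and Cxcl16 at 36.1. In the N1ICD-EGFP class the same scale gave 82.8 for Cxcl17 and 82.6 for Cx3cl1, then 50.2 for Cxcl16 and 29.9 for Ackr3.

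**Figure D2:**
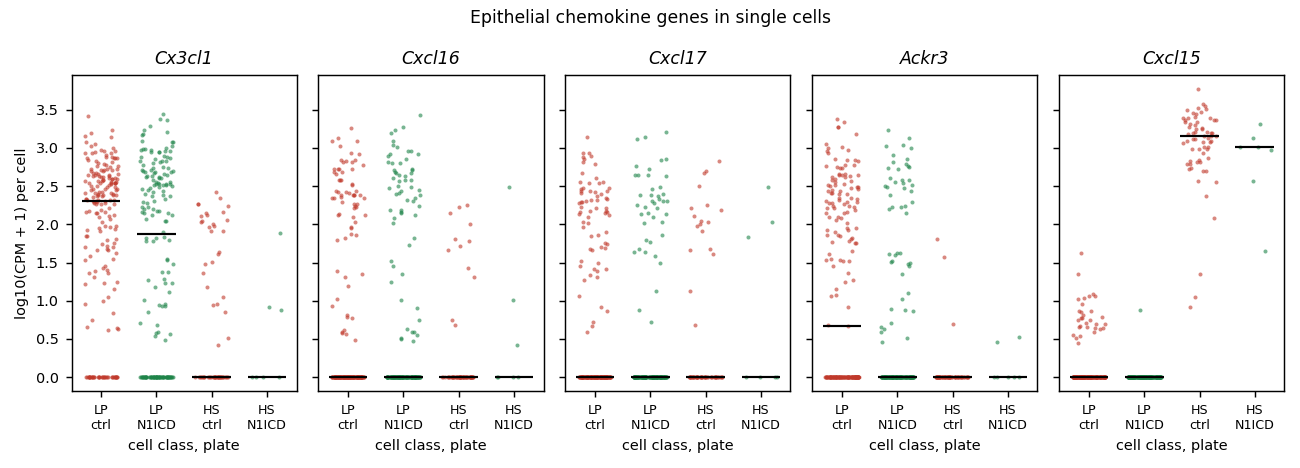
Level per cell, as log10(CPM + 1), of Cx3cl1, Cxcl16, Cxcl17, Ackr3 and Cxcl15 in luminal progenitor/secretory-like (LP) and hormone-sensing luminal-like (HS) cells of the control (ctrl, red) and N1ICD-EGFP (N1ICD, green) plates. Each point is 1 cell and each line the median over all cells of the group. By the median lines Cxcl15 is higher in HS than in LP cells of both plates, although control HS and LP points overlap at low levels. The LP points of the other 4 genes overlap between plates.

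Cxcl15, known as lungkine and as a neutrophil attractant of the mouse lung, was read in every cell of the hormone-sensing class. It lies on chromosome 5 (90794534 to 90803067; protein-coding). In the 65 control and 7 N1ICD-EGFP cells the lowest, median and highest level per cell were 7.17, 1435 and 5936 CPM in the control plate and 43.9, 1016 and 2033 CPM in the N1ICD-EGFP plate. The pooled levels were 1571 CPM (1554 to 1589) and 887 CPM (853 to 923), a log2 ratio of -0.82. The 7 N1ICD-EGFP cells all lay within the range of the 65 control cells. Luminal progenitor/secretory-like cells held 0.852 CPM in the control plate (42 reads in 31 cells) and 1 read in the other. Over all kept cells Cxcl15 went from 404 to 25.3 CPM, a log2 ratio of -3.95, and the hormone-sensing class, which held 99.6% and 99.96% of these reads, made up 19.5% and 2.47% of cells.

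Of 7 genes at 5 CPM or more in hormone-sensing luminal-like cells 2 were at least 2-fold higher and 2 lower in the N1ICD-EGFP plate, where 16.2% and 33.2% of 10465 genes were. Cxcl16 was higher, at 13.6 and 45.4 CPM, and Cx3cl1 was lower, at 39.04 CPM in 29 of 65 cells and 14.4 CPM in 3 of 7 cells. The others were Ccr9, higher, and Cxcl10, lower, each from 1 cell.

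Cxcl15 sits in a cluster of 5 neutrophil-attracting CXC ligands on chromosome 5, within 146.6 kb from 90759360 to 90905938, and the members of the cluster were read in different classes. Cxcl1, an attractant of neutrophils through Cxcr2, was read in 8 control and 17 N1ICD-EGFP luminal progenitor/secretory-like cells, at pooled levels of 31.4 and 37.7 CPM. A single control cell held 62.8% of the reads there, and without the leading cell of each plate the levels were 11.7 and 30.1 CPM. Cxcl2, with the same receptor, was read almost only in leukocyte-like cells, at 387 CPM in 4 control cells and 165.5 CPM in 7 N1ICD-EGFP cells. Cxcl5 had 56 reads in 2 control cells and Cxcl3 had no read. The receptor Cxcr2 had 23 reads in 1 control cell and none in the N1ICD-EGFP plate.

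The 250 bases before the RefSeq starts of these neighbours (GRCm38.p6, plus strand) are shown because Cxcl15 and the genes beside it differed in the cells that read them. Positions are chr5:90890995-90891244 for Cxcl1, chr5:90903649-90903898 for Cxcl2, chr5:90785851-90786100 for Cxcl3 and chr5:90794284-90794533 for Cxcl15. Capitals mark matches to the NF-kappaB forms GGGNTTTCC and GGANTTTCC on either strand, where N is any base.
Cxcl1: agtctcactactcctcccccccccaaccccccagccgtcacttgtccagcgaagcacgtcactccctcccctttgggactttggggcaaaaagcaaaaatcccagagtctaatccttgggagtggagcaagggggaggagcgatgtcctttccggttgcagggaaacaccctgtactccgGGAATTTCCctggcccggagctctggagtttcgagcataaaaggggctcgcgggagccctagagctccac
Cxcl2: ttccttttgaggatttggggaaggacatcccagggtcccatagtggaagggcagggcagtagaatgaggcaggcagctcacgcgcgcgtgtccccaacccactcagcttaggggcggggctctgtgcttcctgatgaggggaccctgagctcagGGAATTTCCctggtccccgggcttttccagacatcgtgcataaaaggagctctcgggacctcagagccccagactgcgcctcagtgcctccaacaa
Cxcl3: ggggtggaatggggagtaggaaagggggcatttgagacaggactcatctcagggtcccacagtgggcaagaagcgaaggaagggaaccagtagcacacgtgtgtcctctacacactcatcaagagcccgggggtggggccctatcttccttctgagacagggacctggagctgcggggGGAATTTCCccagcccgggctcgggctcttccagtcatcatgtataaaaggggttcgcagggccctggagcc
Cxcl15: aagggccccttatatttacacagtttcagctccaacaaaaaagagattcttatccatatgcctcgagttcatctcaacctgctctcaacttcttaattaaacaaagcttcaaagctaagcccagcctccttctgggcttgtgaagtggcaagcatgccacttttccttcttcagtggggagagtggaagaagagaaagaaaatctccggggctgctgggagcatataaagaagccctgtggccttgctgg
Cxcl1, Cxcl2 and Cxcl3 each had 1 match, from position -70 to -62 in Cxcl1, from -96 to -88 in Cxcl2 and from -72 to -64 in Cxcl3. Cxcl15 had none in this window. The windows of Cxcl1 and Cxcl2 end past the GENCODE starts of these genes (90891241 and 90903871), and both matches lie before those starts. Of all 27025 genes with a promoter sequence 2.88% held at least 1 of the 2 forms. Of the 41 chemokine and receptor genes matched 9 did, namely Ackr4, Ccl20, Ccl9, Ccr3, Cxcl1, Cxcl10, Cxcl2, Cxcl3 and Cxcl9. Of these 9, Ccr3 and Cxcl3 had no read in either plate. A match is no evidence of binding.

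Cxcl14 and Cxcl12 were the ligands read in every basal-like cell. Cxcl14 is a homeostatic chemokine of epithelia, and Cxcl12 guides leukocytes and progenitors through Cxcr4. In the 7 control basal-like cells Cxcl14 ranged from 1236 to 8585 CPM with a median of 4833, and Cxcl12 ranged from 78.02 to 2068 CPM with a median of 409. Both were read in all 7 cells. Ackr3 (306.8 CPM, 5 cells) and Ackr4, a scavenger of Ccl19 and Ccl25 (83.8 CPM), were read there too, so a ligand and its scavenging receptor were read in the same class. The N1ICD-EGFP plate had no basal-like cluster, and with both plates clustered together 2 of its luminal progenitor/secretory-like cells joined the basal-like cluster. Another 4 joined the leukocyte-like cluster, and all 34 control and 42 N1ICD-EGFP unnamed cells fell in the luminal progenitor/secretory-like class.

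In luminal progenitor/secretory-like cells Cxcl14 was read in 21 control and 6 N1ICD-EGFP cells, but at 5.94 and 52.6 CPM. One N1ICD-EGFP cell held 79.6% of these reads and also read 7 of the 8 basal markers. With the leading cell of each plate left out the levels were 4.45 and 10.8 CPM. Cxcl12 showed 11.4 and 22.8 CPM in 12 and 7 cells, and its leading N1ICD-EGFP cell read 6 of the 7 endothelial markers. Without the cells that read 2 or more leukocyte, basal, fibroblast or endothelial markers the log2 ratio was -1.89 for Cxcl14 and -3.24 for Cxcl12. Cxcl12 was then read in 5 control and 2 N1ICD-EGFP cells. Of its control reads in the whole class 1 cell held 58.4%, and that cell read no leukocyte, basal or endothelial marker. Over all kept cells Cxcl12 had 59.8 and 49.7 CPM, and 50.9% of its control reads and 32.3% of its N1ICD-EGFP reads lay in unnamed clusters. Leukocyte-like cells held 37.2% of its N1ICD-EGFP reads. Fibroblast markers in the unnamed clusters summed to 9360 and 3519 CPM, with highest sums per cell of 62645 and 52766 CPM. At least 2 fibroblast markers were read in 8 control and 2 N1ICD-EGFP cells of these clusters. Which of their cells held the Cxcl12 reads was not tested.

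Over all kept cells 13 of the 33 genes at 5 CPM or more were at least 2-fold higher in the N1ICD-EGFP plate, where 11.1% of 12021 genes were, and 7 were at least 2-fold lower, where 8.29% were. The median log2 ratio of the 33 was 0.55, against 0.07 for all 12021 genes. The higher genes included Ccl2, Ccl24, Ccl6, Ccl7, Ccl8, Ccl9, Ccr2, Ccr7, Ccr9, Cxcl10, Cxcl13 and Cxcr5. Of these Ccl2, Ccl24, Ccl7, Ccl8, Ccr9, Cxcl10 and Cxcl13 passed the 5 CPM minimum only in the N1ICD-EGFP plate. Without the leading cell of each plate Cxcl10 stood at 1.24 and 1.57 CPM and Cxcl13 at 0 and 0.88 CPM, below that minimum. The lower ones were Ccl3, Ccl4, Cxcl14, Cxcl15, Cxcr3, Cxcr6 and Xcl1, of which Ccl3, Cxcr3 and Xcl1 passed the minimum only in the control plate. The summed level went from 12.3 to 206.1 CPM for Ccl9, from 19.7 to 67.1 CPM for Ccr2 and from 5.86 to 39.96 CPM for Cxcr5. Ccl5 (92.1 and 81.9 CPM) and Cxcr4 (7.30 and 7.98 CPM) differed by less than 2-fold. By family, 3 of 4 monocyte-attracting CC ligands and 4 of 6 CC receptors were higher, 1 of 4 CXC receptors was higher and 2 were lower, and of 5 CC ligands of myeloid and T cells 2 were higher and 2 lower.

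Leukocyte-like cells made up 7.19% of kept control cells and 16.96% of the others, and their 8 shared markers summed to 881 and 2400 CPM over all cells. With leukocyte-like cells left out, 9.91% of all genes were higher and 8.94% lower. Of the 13 higher genes 4 were still at least 2-fold higher (Ccl6, Ccl8, Ccr7 and Cxcl13), and the other 9 were below 5 CPM in both plates. Cxcl13 was read in only 2 N1ICD-EGFP cells of any class. Of the 7 lower genes Cxcl14 and Cxcl15 were still lower, and the other 5 were below 5 CPM. Ccl5 and Ccl22 then joined the higher genes. Cxcr5, with a log2 ratio of 2.58 over all cells, had -0.65 without them. Ccl6 was 2.80 and 10.5 CPM outside the leukocyte-like cells, against 36.1 and 418 CPM over all cells.

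**Figure D3:**
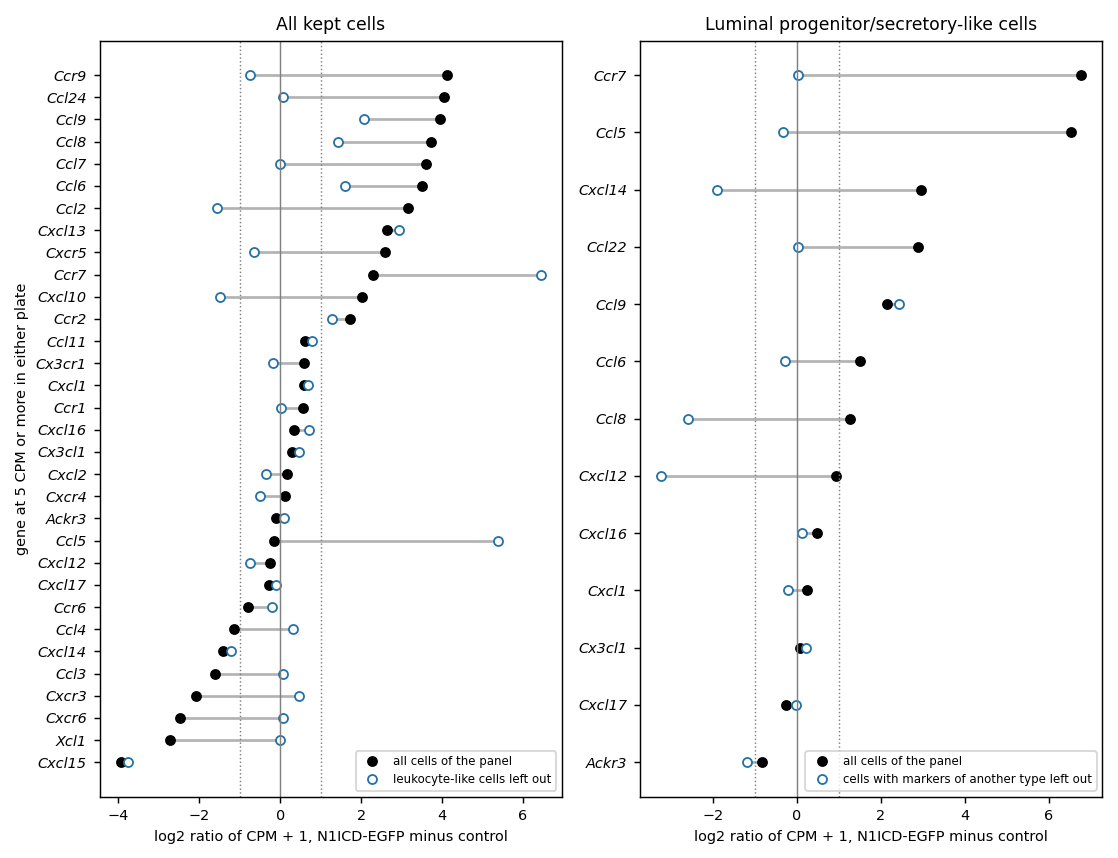
Log2 ratio of CPM plus 1, N1ICD-EGFP minus control, for genes at 5 CPM or more in either plate, over all kept cells (left, 32 genes) and in luminal progenitor/secretory-like cells (right, 13 genes). Filled points use every cell of the panel. Open points leave out leukocyte-like cells (left) or cells that read 2 or more markers of another type (right), and dotted lines mark 2-fold. Without leukocyte-like cells Cxcl15 moves from -3.95 to -3.77, whereas Ccl6 moves further towards 0.

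Within luminal progenitor/secretory-like cells 7 of 13 genes at 5 CPM or more were at least 2-fold higher and 0 were lower, where 11.7% and 7.18% of 11090 genes were. The 7 were Ccl22, Ccl5, Ccl6, Ccl8, Ccl9, Ccr7 and Cxcl14, and each was read in 25 cells or fewer of the N1ICD-EGFP plate. Of the 7, only Cxcl14 reached 5 CPM in the control class, so the others passed the minimum only in the N1ICD-EGFP plate. The 11090 genes were chosen by the same minimum in either plate. Ccr7, a receptor that brings lymphocytes and dendritic cells to lymph nodes, went from 2 reads to 7308 reads, and 1 cell held 91.5% of them. Ccl5, a T cell and macrophage attractant, went from 17 to 7904 reads in 7 cells, of which 1 cell held 65.7%. The leading N1ICD-EGFP cell of Ccr7, that of Ccl5 and that of Ccl22 read 7 of 8 leukocyte markers and 2 of 9 luminal progenitor markers. Their counts were also equal for the other marker lists checked, so these may be 1 and the same cell. Ccl8 was read in 2 N1ICD-EGFP cells, of which 1 held 99.9% of the reads and read 5 of 7 macrophage markers, and without the leading cell of each plate its log2 ratio was -1.37.

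In the N1ICD-EGFP plate summed leukocyte, basal and endothelial markers were higher in this class. Leukocyte markers summed to 38.8 and 117.3 CPM there, basal markers to 53.2 and 306.1 CPM, and endothelial markers to 4.503 and 214.6 CPM, whereas fibroblast markers summed to 17.4 and 10.1 CPM. Per cell the summed leukocyte markers ranged from 0 to 785 CPM in the control and from 0 to 3561 CPM in the N1ICD-EGFP plate, with a median of 0 in both. The highest sums per cell were 675 and 23683 CPM for basal and 611 and 16645.5 CPM for endothelial markers, also with medians of 0. At least 2 basal markers were read in 18 control and 13 N1ICD-EGFP cells, and at least 2 endothelial markers in 1 and 8. Of the defining markers, Trp63, Pdgfrb, Dpt, Tie1 and Emcn were at 0 in the control class, and no leukocyte, basal, fibroblast or endothelial marker was at 0 in the N1ICD-EGFP class. At least 2 markers of 1 of these types were read in 33 control and 51 N1ICD-EGFP cells of the class. Without those cells 1 gene of 10 at 5 CPM or more was at least 2-fold higher and 5 were lower, where 11% and 9.89% of 10871 genes were. The higher gene was Ccl9, at 0.460 and 6.92 CPM. The lower ones were Ackr3 (181.3 and 79.9 CPM) and, all at under 10 CPM, Ccl8, Cxcl12, Cxcl14 and Cxcr6. In the control plate Ccl8 was then read in 2 cells, Cxcr6 in 4, Cxcl12 in 5 and Cxcl14 in 17. In the whole class 1 control cell held 90.6% of the Cxcr6 reads and 1 held 58.4% of the Cxcl12 reads.

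Ccl6 and Ccl9 were read in most macrophages of both plates, at higher levels in the N1ICD-EGFP plate. They are neighbouring CC ligands on chromosome 11, within 20.2 kb, and bind Ccr1 on myeloid cells in mice. In cells with macrophage markers Ccl6 was read in 11 of 11 control cells, from 3.94 to 6783 CPM with a median of 782, and in 14 of 17 N1ICD-EGFP cells, from 610 to 10987 CPM with a median of 5660. The pooled levels were 1049 and 4649 CPM. Ccl9 was read in 9 of 11 cells, from 29.97 to 1575 CPM, and in 12 of 17 cells, from 1602 to 7527 CPM. These ranges leave out the cells without a read, which both plates held for Ccl9. Over all 11 and 17 cells the levels of the 2 plates overlapped for both genes.

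In the same luminal class as above, Ccl6 and Ccl9 were read at low levels, with 3.55 and 11.9 CPM for Ccl6 and 0.385 and 5.18 CPM for Ccl9. Ccl9 was read in 4 control and 12 N1ICD-EGFP cells, and its log2 ratio of 2.16 stayed positive in 17 settings, from 0.69 to 3.44. The leading N1ICD-EGFP cell held 41.6% of its reads and read none of the 8 leukocyte and none of the 7 macrophage markers. Ccl6 was read in 6 and 25 cells, and its log2 ratio of 1.502 ran from -0.67 to 2.08. One N1ICD-EGFP cell held 77.1% of its reads and read 3 of 8 leukocyte and none of the 7 macrophage markers. Without the leading cell of each plate Ccl6 stood at 2.41 and 2.75 CPM, a log2 ratio of 0.14. Macrophage markers summed to 29.8 and 37.3 CPM in the class, and their part in these values was not tested.

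Other macrophage ligands differed in both directions. Ccl2, the main monocyte attractant acting on Ccr2, stood at 55.4 CPM (2 of 11 cells) in the control and 432 CPM (8 of 17 cells) in the N1ICD-EGFP plate. Ccl24, an eosinophil attractant linked to alternatively activated macrophages, had no read in control macrophages and 232.6 CPM in 7 N1ICD-EGFP cells. Ccl8 had 539 CPM in 6 N1ICD-EGFP cells, but 1 cell held 90.7% of its reads, and Ccl7 had 108.2 CPM in 3 cells. Ccl3 and Ccl4, inflammatory attractants of myeloid and T cells, went the other way, from 499 to 40.6 CPM and from 486 to 98.6 CPM. Cxcl2 went from 790.3 to 218.95 CPM and Cxcl16 from 806 to 227.3 CPM. The 11 control cells came from a cluster in which T cell and macrophage markers were raised together, whereas the N1ICD-EGFP plate had a separate macrophage cluster led by Retnla and Lyz2.

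Over all leukocyte-like cells 12 genes were at least 2-fold higher and 15 lower of the 34 at 5 CPM or more, against backgrounds of 25.6% and 27.6% of 10861 genes. The 3 kinds of leukocyte stood in different shares in the plates. B cell markers were read most in 21 of 48 N1ICD-EGFP and 3 of 24 control leukocyte-like cells, so pooled ratios of this class also carry its makeup.

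Among T cell ligands and receptors the control plate had the higher levels of Ccl5, Cxcr6, Cxcr3 and Xcl1. In the 8 control cells with T cell markers Ccl5 stood at 3193 CPM, read in 4 cells at 3242 to 11665 CPM, and the 8 N1ICD-EGFP cells had no read. Cxcr6, the receptor for Cxcl16, stood at 1120 CPM in 5 cells against 175.2 CPM in 1 cell. Cxcr3, the receptor for the interferon-induced Cxcl9, Cxcl10 and Cxcl11, was read in 5 control cells at 94.5 to 1290 CPM and was 502 CPM pooled, with no read in the 8 N1ICD-EGFP cells. Xcl1, lymphotactin, was read in 4 control cells and in no N1ICD-EGFP cell of any class. Ccr7 and Ccr9 went the other way. Ccr7 stood at 742 CPM in 2 of 8 control cells and 1329 CPM in 7 of 8 N1ICD-EGFP cells. Ccr9 had no read in the control cells and 631 CPM from 1 N1ICD-EGFP cell. The 8 control cells also held luminal progenitor and secretory markers, at 2432 and 4074 CPM pooled. Per cell their medians were 10.8 and 161.4 CPM and their highest sums 20543 and 31139 CPM. In the 8 N1ICD-EGFP cells the pooled sums were 3.34 and 7.51 CPM. The part of this difference in the values above was not tested.

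In B cell marker cells of the N1ICD-EGFP plate, Cxcr5 and Ccr7, which steer B cells to and within follicles, stood at 641 and 656 CPM, each read in 10 of 21 cells. Cxcr4 was read in 13 of them at 68.9 CPM. The 3 control cells gave 364.9 CPM for Cxcr5 and 1956 CPM for Ccr7, in 2 cells each. Cxcl13, the ligand of Cxcr5, was rare, with 15 reads in 1 control cell and 617 reads in 2 N1ICD-EGFP cells. Cxcr5 was also read at low level in 63 control and 51 N1ICD-EGFP luminal progenitor/secretory-like cells, at 4.04 and 2.06 CPM. Its locus on chromosome 9 overlaps Bcl9l on the opposite strand, so these low reads cannot be told apart from reads of that gene.

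Among myeloid receptors Ccr2 stood at 158.4 CPM in the control macrophages (4 of 11 read it) and at 774 CPM in the others (9 of 17). Cx3cr1, the receptor of Cx3cl1, had 267.6 and 167.9 CPM, in 9 of 11 and 5 of 17 macrophages. Ccr9, known as the gut- and thymus-homing receptor for Ccl25, had 229.9 CPM over the N1ICD-EGFP leukocyte-like cells, in 7 cells, and no read in the control ones. One of the 7 had T cell markers and held 38.6% of the reads. Ccr9 overlaps other genes, among them Lztfl1.

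**Figure D4:**
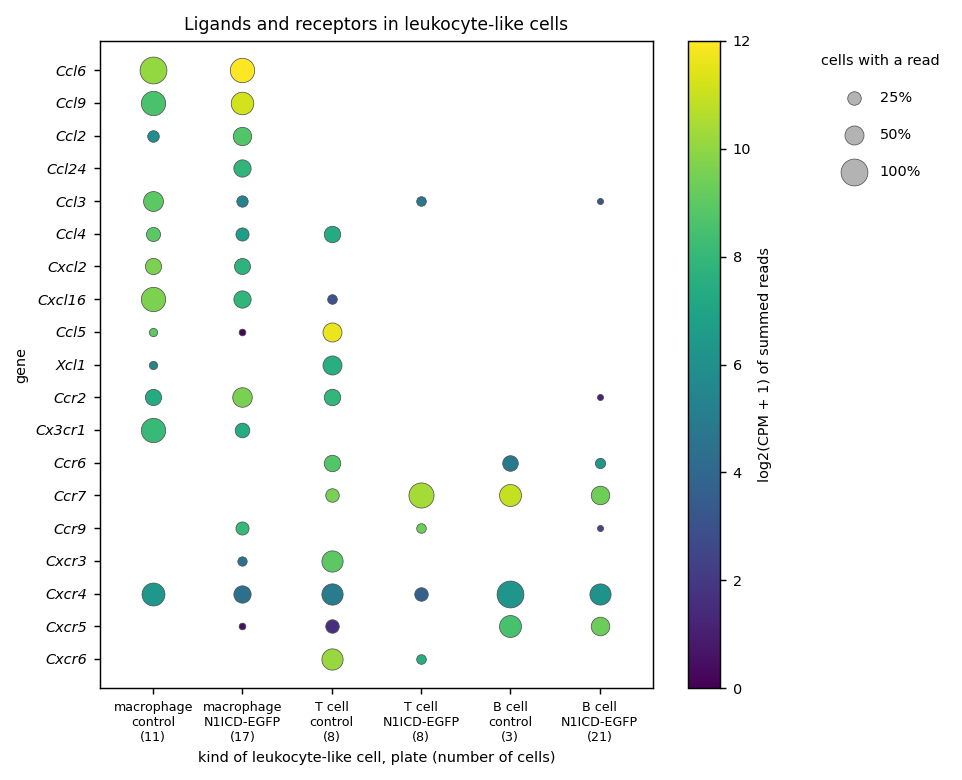
Ligands and receptors in leukocyte-like cells, split by the markers they read into macrophage, T cell and B cell kinds in each plate, with the number of cells in brackets. Colour gives log2(CPM + 1) of the summed reads and area the percentage of cells with a read. Ccl6 and Ccl9 are large and bright in macrophages of both plates, Ccl5 and Cxcr6 are bright in control T cells, and Cxcr5 is largest in B cells.

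Ligands and receptors of known pairs were set side by side by class. Cx3cl1 was read in luminal cells at 305.2 and 324.6 CPM, and Cx3cr1 in leukocyte-like cells at 131.1 and 77.1 CPM against 0.304 and 0.016 CPM in the luminal class. Cxcl16 was read in both classes, and Cxcr6 stood at 647 CPM in leukocyte-like cells of the control and 24.7 CPM of the N1ICD-EGFP plate. Cxcr4 stood at 61.9 and 35.3 CPM in leukocyte-like cells, with its ligand Cxcl12 at 854 CPM in the control basal-like cells. In leukocyte-like cells Cxcl12 itself stood at 0.569 CPM in the control and 105.6 CPM, from 5 cells, in the N1ICD-EGFP plate. Some pairs had an unread partner, since neither Ccl19, a ligand of Ccr7, nor Ccr3, the receptor of Ccl11, had a read. Ccl28, which draws antibody-secreting cells with Ccr10 into the lactating gland, had 2.25 CPM over all kept control cells, from 5 cells, and 63 reads in 1 N1ICD-EGFP cell, and Ccr10 had 54 reads in 1 control cell. RNA levels do not show that any pair was engaged.

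Genes around the pathway were also compared within luminal progenitor/secretory-like cells, beside the same 11.7% and 7.18% of all genes. Of 22 measured NF-kappaB genes 6 were at least 2-fold higher and 1 lower, with a median log2 ratio of 0.30 against 0.12 for all 11090 genes. The higher ones were Nfkb2, Nfkbia (551 to 1143 CPM), Tnfaip3, Icam1 (14.7 to 79.2 CPM), Tnf and Il1r1, and the lower one was Rel. Of 17 interferon genes 1 was higher and 4 lower (median -0.14), and of 16 immediate early genes of tissue dissociation 0 were higher and 1 lower (median 0.14). Of 17 genes of chemokine receptor signalling 2 were higher and 2 lower, and of 7 glycan and protease genes 2 were higher and 1 lower. Of chemokines with other names, Mif and Ccl27a differed by less than 2-fold. Of 3 receptors with other names, Cd74, which binds Mif and serves MHC class II assembly, and Gpr35 were higher, and Ccrl2, a receptor for chemerin, stood at 97.6 and 142.4 CPM. These values rest on the class whose summed leukocyte, basal and endothelial markers were higher in the N1ICD-EGFP plate, as given above. Without cells that read 2 or more markers of another type, 11% of 10871 genes were higher and 9.89% lower. Of 22 NF-kappaB genes 5 were then higher and 1 lower (median log2 ratio 0.28 against 0.08 for all genes). Nfkbia stood at 553.5 and 1181 CPM and Icam1 at 11.9 and 72.9 CPM. Tnfaip3 and Tnf were then below 2-fold and Il17ra, a receptor for interleukin-17, above it. Cd74, also a gene of antigen-presenting leukocytes, then stood at 16.04 and 12.9 CPM. In the same cells 0 of 18 interferon genes were higher and 6 lower (median -0.17), namely Stat2, Irf7, Isg15, Ifit3, Iigp1 and Igtp. Of 17 genes of chemokine receptor signalling 2 were higher and 4 lower (median -0.34). Of 16 immediate early genes 0 were higher and 1 lower, and of 6 glycan and protease genes 1 was higher and 0 lower.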

How the data were processed

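The deposited tables hold raw counts of reads for each gene in each well, which the authors obtained by Smart-Seq2 without molecular identifiers. Per the submitters' processing notes the aligner was STAR and the build mm10, while versions, the counter, the annotation and strand use were not given in those sources. Rows with a repeated name (492 of 24490) were summed by name and eGFP was kept apart, leaving 23997 names. The rule on gene names took 57 rows, which gave 56 genes.

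Wells with 50000 reads and 1000 genes or more were kept. No doublet caller was run, and 1 alternative left out cells more than 3 median absolute deviations above their plate's median number of genes. Summed reads of a class and plate were scaled to CPM, and a ratio is the log2 of N1ICD-EGFP over control after adding a pseudocount of 1 CPM to each. Genes at 5 CPM or more in either plate were compared, and 2-fold was the size reported. Sums have Poisson and shares Clopper-Pearson 95% intervals, which cover counting error only. As no animal is named, a plate counts as 1 sample and no tests were run.

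Each plate was clustered with scanpy 1.11.5 (2000 variable genes, 15 components, 15 neighbours, Leiden resolution 0.8, seed 0) without the 56 genes. A class needed 3 or more raised markers, each read in at least 20% of a cluster's cells and 1 log2 unit above the mean of clusters. A cluster was left unnamed if its 10 leading genes held more markers of another class. The same was done if its depth was far below that of its plate and those genes held no marker of its class. Both unnamed clusters had enough raised luminal markers but met the rule on leading genes, with Dcn (control) and Krt14 (N1ICD-EGFP) among them. Leukocyte-like cells were split by cell, taking the kind with most of its markers read and at least 2, a rule set after the clusters had been seen. Promoter and gene positions came from RefSeq and GENCODE tables for GRCm38, the assembly of mm10. NF-kappaB motifs were searched first in forms of 10 bases, which 1.88% of genes and 8 of the 41 matched genes held, and then in the 9-base forms shown. The members, the marker and gene lists and these rules were chosen with earlier results of these data known.

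Genes named over all cells or the luminal class are those at 5 CPM or more with a read in 5% of cells or more of a plate, and in the other classes those at 20 CPM or more with a read in 20% of cells or more. Genes called 2-fold higher or lower, and further members of their families, were named after their values were seen. The ratio and call steps were tested on simulated data. Alternatives covered the cell filter, possible doublets, scaling, thinning, pseudocount, minimum level, fold, well columns, clustering and markers of other cell types. The values of 1 member are not reported here, although it enters the counts.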

Additional observations from a re-analysis of the deposited data

Results flagged for a closer look

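For 3 of the genes chosen by level and share of cells, the plates differed by at least 2-fold in opposite directions in 2 cell classes, and none of these differences was tested, since each plate is 1 sample. Ccl5 had a log2 ratio of 6.52 in luminal progenitor/secretory-like cells and -10.36 in leukocyte-like cells, a difference of 16.89. The first value rests on 7 N1ICD-EGFP cells, 1 of which held 65.7% of the reads, and the second on 5 control cells. Without luminal cells that read 2 or more markers of another type, Ccl5 stood at 0.387 and 0.105 CPM, a log2 ratio of -0.33, so the 2 values then had the same sign. Cxcl14 had log2 ratios of 2.95 and -4.47 in the same classes, a difference of 7.42, with 79.6% of the luminal N1ICD-EGFP reads in 1 cell, and the first was -1.89 without those cells. Cxcl16 had a log2 ratio of 1.67 in hormone-sensing luminal-like cells and -1.92 in leukocyte-like cells, a difference of 3.59, and the first value compares 65 with 7 cells. Outside that choice of genes, Cxcl10 had log2 ratios of -3.14 in hormone-sensing luminal-like cells, from 1 control cell, and 2.45 in leukocyte-like cells, from 2 cells of each plate.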

How the results depend on the processing

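No paired analysis was possible because each group is 1 plate and the wells of the plates share no source in the labels. Over all kept cells the number of genes at least 2-fold higher was 13, and 14 of 15 settings gave counts within 1.5 times of it, the exception being 6 with leukocyte-like cells left out. The number lower was 7. It was 12 at a minimum of 1 CPM, 12 with no minimum, 4 without the leading cell of each gene and 2 with leukocyte-like cells left out.

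In luminal progenitor/secretory-like cells the number higher was 7. It was 2 with the looser cell filter, 4 with a pseudocount of 5, 3 with both plates clustered together, 2 with classes set cell by cell from markers, and 1 without cells reading 2 leukocyte markers or 2 markers of any other type. The number lower was 0. It was 3, 2 and 5 with the looser filter, thinning and other-type markers left out, 1 by the mean of per-cell CPM, at 1.5-fold, in well columns 1 to 12 and without leukocyte markers, 2 at a minimum of 1 CPM, with no minimum, in well columns 13 to 24 and at resolution 1.2, and 3 with classes set from markers.

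Some single values turned round. Cxcr5 over all cells (2.58) was -0.79 under the stricter filter and -0.65 without leukocyte-like cells. Cxcl14 over all cells (-1.42) was 0.85 in well columns 13 to 24. In the luminal class Cxcl14 (2.95) was -1.97 with the looser filter, -1.72 at resolution 1.2, -0.027 with both plates together, -1.95 with classes from markers and -1.89 without other-type markers. Ccl6 there (1.502) was -0.13 in well columns 1 to 12, -0.67 and -0.62 at resolutions 0.4 and 1.2, -0.49 without leukocyte markers and -0.29 without other-type markers. Leaving out cells removes reads by construction, and otherwise the cause was not tested. Of all values for single genes under these alternatives, 36.9% lay within the counting interval of the reported value, 59.2% outside it, and 13 values of at least 2-fold changed sign. The alternatives with the leading cell or other-type markers left out were chosen after seeing the data. With 1 sample per group, 7 hormone-sensing cells in the N1ICD-EGFP plate and genes read in under 10 cells, the values describe these cells only.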
